A study of Homo sapiens with 8 samples.

Results

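Halo-tagged polypyrimidine tract binding protein (PTB) was captured from human 293T cells after UVA light and from the same kind of cells without UV, and the RNA positions recovered with and without light were compared. All peaks of the 2 lists were taken. Peaks within 20 nt of each other on one strand were merged into sites, which gave 70110 UVA sites and 2341 sites without UV, 72451 of the 206508 sites in the 5 lists of the series. Both groups carried the Halo-PTB transgenetic genotype in 293T, an established embryonic kidney line kept under puromycin, and had 2 samples each. The light is the only difference between the 2 groups that the labels state. The labels also name more than 1 sequencing platform and do not say which library ran on which. No dose of light and no photoreactive nucleoside is named in them, and no untagged parental line is among the groups compared here. Each group has 1 deposited list without replicate names, so no spread between replicates and no test between conditions can be given. Positions are in hg19, counted from 1. No gene annotation of that build was used here, so transcripts are described as stretches of sites on one strand and are not named.

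PTB is an RNA-binding protein of the hnRNP class that contacts pyrimidine-rich RNA through its RNA recognition motifs. It is best known as a repressor of alternative exons, and it also acts on 3′ end processing, RNA stability and translation. Crosslinking and immunoprecipitation (CLIP) uses light to bond a protein to the RNA it touches. GoldCLIP replaces the antibody and the protein gel by a tag that bonds covalently to beads, so that harsh washing is possible. RNA that is recovered without light has reached the library without a UV bond, and a sample without light serves as the control for it. UVC acts on natural bases, whereas UVA crosslinking is usually done with thiolated nucleosides.

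The UVA list was much longer than the list without UV. It held 83725 peaks against 3809, 29.9 sites for each site without UV, and 3474.14 kb of covered sequence against 115.686 kb. Of the 70110 UVA sites, 69771 met no site of the list without UV and are called gained below. The other 339 (0.484%, interval 0.434 to 0.538) met a no-UV site, which here means an overlap of 1 nt or more on one strand. The shortness of the control list bounds this share: it would be 3.34% if each no-UV site met 1 UVA site. Seen from the other side, 340 of the 2341 no-UV sites (14.5%, interval 13.1 to 16.02) lay on a UVA site and 2001 did not. Depth is unknown for both lists, so gained means absent from the list without UV, not absent without light. Intervals here and below are exact (Clopper-Pearson) unless said otherwise. They cover counting error only and treat sites as independent.

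With direct overlaps counted in, no-UV sites lay near UVA sites more often on the same strand than on the opposite strand. On the same strand 19.8% of no-UV sites had a UVA site within 50 nt, 33.9% within 1 kb (interval 32.0 to 35.9) and 56.6% within 10 kb. On the opposite strand the shares were 0.128%, 2.09% (interval 1.55 to 2.76) and 10.9%. Direct overlap with a UVA site on the opposite strand was seen for 1 no-UV site. At 100 kb the strands came closer, at 83.2% and 52.5%. Without the overlapping sites, 6.25% of the other 2001 no-UV sites had a UVA site within 50 nt on the same strand and 22.7% within 1 kb. From the UVA side, 2.59% of sites had a no-UV site within 1 kb on the same strand and 0.0998% on the opposite one. Sites that met the definition of gained therefore included some just outside an overlap: 188 had a no-UV site within 50 nt and 1475 (2.11%) within 1 kb. The YFP list, from cells with Halo-tagged yellow fluorescent protein under UVC, had a UVA site within 1 kb for 41.2% of its sites on the same strand and 2.50% on the opposite strand.

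**Figure D1:**
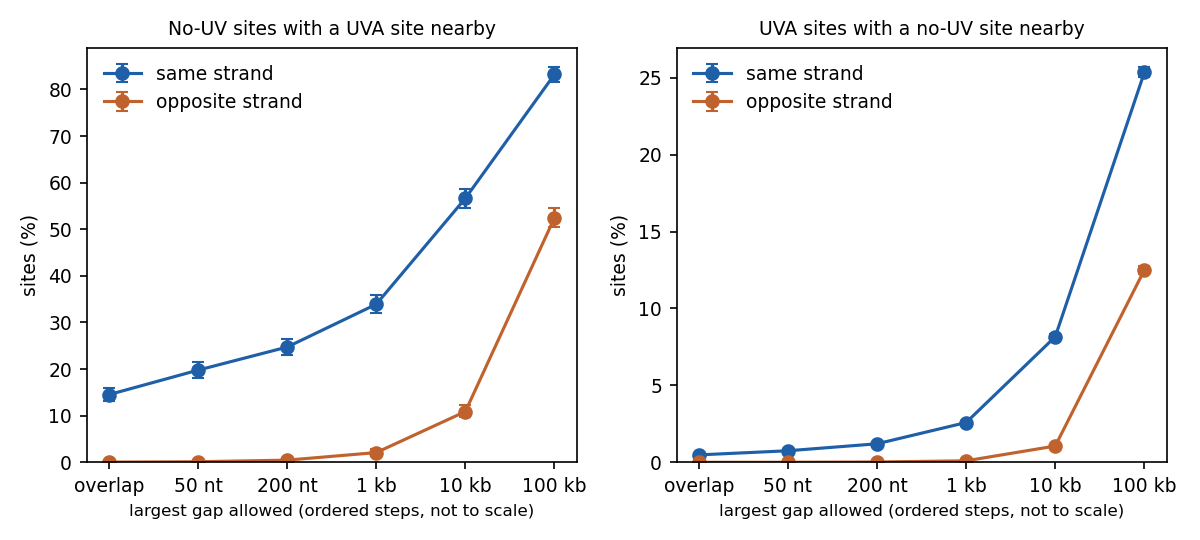
Share of sites (%) that have a site of the other list within a given gap, for no-UV sites (left) and UVA sites (right), on the same strand (blue) and the opposite strand (orange); bars are exact 95% intervals for counting error. The same-strand share of no-UV sites climbs from 14.5% at overlap to 56.6% at 10 kb, where the opposite strand is at 10.9%.

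UVA sites that were also seen without light were wider and scored higher than gained sites. Their median width was 74 nt (quartiles 48 and 121.5) against 40 nt (25 and 60) for gained sites. The deposited score belongs to the authors' peak calling, rises as a peak's p-value falls and ends at 1000. It was 317 in the median for the 339 shared sites (quartiles 130 and 920) and 80 for gained sites (32 and 188). At the limit of 1000 stood 80 of the shared sites (23.6%) and 1357 of the gained ones (1.94%). Shared sites also lay in closer company. The nearest other UVA site on the strand was 131 nt away in the median, against 393 nt for gained sites, and 55.2% against 40.3% had one within 200 nt.

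The share of UVA sites also found without light rose with the UVA score. It was 0.0834% at scores up to 20 (8 of 9587 sites), 0.485% (66 of 13615) above 100 and up to 200, and 1.68% (57 of 3385) above 500 and below the limit. At the limit it was 5.57% (80 of 1437, interval 4.44 to 6.88). The YFP share was highest at the limit as well: 4.24% of UVA sites at the limit lay on a YFP site (interval 3.26 to 5.42), against 0.0730% at scores up to 20. Width gave the same order, from 0.160% of UVA sites up to 20 nt wide to 3.23% of those over 200 nt, and a wide site has more room for an overlap. At the limit 1357 of 1437 UVA sites lay on no site of the list without UV, against 69771 of 70110 over all scores.

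**Figure D2:**
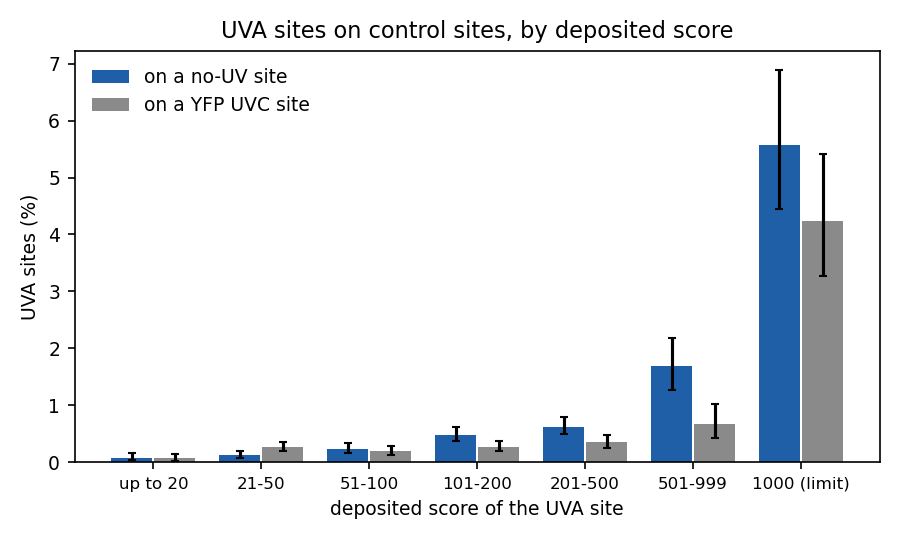
Share of UVA sites (%) that overlap a no-UV site (blue) or a YFP UVC site (grey), by the deposited score of the UVA site; bars start at 0 and whiskers are exact 95% intervals. Both shares are highest at the score limit, 5.57% and 4.24%, and below 0.1% at scores up to 20.

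No-UV sites differed from UVA sites in shape. Of the 2341 no-UV sites, 1675 (71.6%) were 49 to 51 nt wide, against 3.59% of UVA sites, and 55.8% were made of more than 1 peak. The same width was common among UVC sites of PTB (40.01%) and rare in the YFP list (0.370%) and in the PTB iCLIP list (3.50%). The labels name more than one sequencing platform without saying which library ran on which. Read lengths are not given there either. The part of read length in these widths was not tested. No-UV sites of 49 to 51 nt lay on a UVA site in 10.0% of cases (168 of 1675). Of the 128 no-UV sites wider than 51 nt, 83 did (64.8%, interval 55.9 to 73.1). Among the 340 no-UV sites on a UVA site, 7 had the same 5′ end as a UVA site, and none matched one at both ends. The overlap in the paired sites was 34.5 nt in the median, and in 92 of 348 pairs the no-UV site lay wholly inside the UVA site.

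The share that lay on a UVA site was highest among the strongest no-UV sites. At no-UV scores up to 16, 12.7% lay on a UVA site, from 31 to 50 it was 18.3%, and above 100 it was 18 of 26 (69.2%, interval 48.2 to 85.7). Over the 348 overlapping pairs the UVA and no-UV scores were weakly related, with a Spearman rho of 0.11 and a Pearson r of 0.22. These are given as a description across sites within 2 lists. Of the 339 shared UVA sites, 80 stood at the limit of 1000, and the 340 no-UV sites on a UVA site had score quartiles of 16 and 29. This ceiling and narrow range limit what the 2 values can show.

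The other lists, which played no part in choosing the sites, separated the classes further. PTB UVC sites overlapped 12.3% of gained UVA sites (interval 12.1 to 12.6), 66.1% of shared UVA sites (interval 60.8 to 71.1) and 10.1% of no-UV sites on no UVA site (interval 8.86 to 11.6). The YFP list met 0.284%, 12.4% and 1.35% of them. Sites of PTB iCLIP, an antibody-based map from another study that the authors re-analysed, met 18.9%, 32.7% and 3.05%. Gained sites therefore met iCLIP more often than UVC, whereas shared sites met UVC more often than iCLIP. A total of 50920 gained sites (73.0%) and 85 shared sites (25.1%) lay on none of the 3 other lists. Of the no-UV sites on no UVA site, 1745 (87.2%) met none of them.

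Since shared sites scored higher, the classes were also set side by side within score bands. At the limit, 92.5% of 80 shared sites (interval 84.4 to 97.2) and 50.1% of 1357 gained sites (interval 47.4 to 52.8) met a UVC site. Above 200 and up to 500 the shares were 58.9% of 73 (interval 46.8 to 70.3) and 20.5% of 11545 (interval 19.7 to 21.2). For YFP at the limit they were 32.5% (interval 22.4 to 43.9) and 2.58% (interval 1.80 to 3.57). For iCLIP at the limit they were 56.2% (interval 44.7 to 67.3) and 59.0% (interval 56.3 to 61.6), intervals that overlap. Below the limit the iCLIP shares had no steady order. Above 500 the share of shared sites was the lower one, 26.3% of 57 (interval 15.5 to 39.7) against 43.3% of 3328 (interval 41.6 to 45.0). Above 200 and up to 500 it was the higher one, 39.7% of 73 (interval 28.5 to 51.9) against 31.1% of 11545 (interval 30.3 to 32.0), with intervals that overlap. In each band above a score of 20 shared sites were still wider, with a median of 114 nt against 96 nt at the limit. Up to 20 the 8 shared sites were narrower, at 17.5 nt against 33 nt. The part of width was not tested.

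The gained sites with the highest score were tied at 1000 and ranked by width, so the 10 named are broad by choice. The widest ran over 845 nt at chr16:2810626-2811470 (plus strand) and was merged from 25 peaks. Next came chr21:34930744-34931434 (plus, 691 nt), chr12:57885032-57885637 (plus, 606 nt) and chr16:29821623-29822175 (plus, 553 nt). On chromosome 19 there were 3, from 58763516 to 58764058 (plus), from 48958110 to 48958611 (plus) and from 5975662 to 5976162 (minus). The remaining sites of the 10 were at chr3:37029624-37030134 (minus), chr8:48843376-48843875 (minus) and chr1:39458148-39458621 (plus, 474 nt). Each of the 10 overlapped a PTB UVC and an iCLIP site, and none overlapped a YFP site. A wide site has more room for an overlap, and over all gained sites the UVC and iCLIP shares were the 12.3% and 18.9% given above. The sites on chromosome 16 had a no-UV site close by, 106 nt from the first and 219 nt from the second. For the other 8 the nearest no-UV site on the strand was at least 4320 nt away.

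The UVA sites also seen without light were ranked in the same way, so that the 10 named stand at the score limit and lead in width by choice. The widest was at chrX:73047064-73047801 (minus strand, 738 nt, 32 peaks) and covered 3 no-UV sites, the best with a score of 280. The site at chr11:65622302-65622654 (minus) overlapped 2 no-UV sites with a best score of 115. At chr1:26227071-26227514 (minus) the no-UV partner scored 23, at chr12:6857185-6857586 (minus) 16, and at chr17:30703315-30703711 (plus) 24. The partners scored 23 at chr14:20944828-20945178 (plus), 15 at chr15:52839815-52840153 (minus) and 16 at chr8:37556556-37556848 (plus). Chromosome X held another 2 of the 10, from 73062380 to 73062666 and from 73058844 to 73059118, with partners scoring 52 and 21. All 10 met a UVC site, 9 met an iCLIP site and 3 a YFP site. Over all 339 shared UVA sites these shares were 66.1%, 32.7% and 12.4%, and over the 80 at the limit 92.5%, 56.2% and 32.5%. A wide site has more room for an overlap here too. Within the no-UV list, whose median score was 17, the best partners ranged from 15 to 280, and 7 of the 10 scored 24 or less.

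Ranked by their own score, the leading no-UV sites were mostly present in the UVA and UVC lists too. The highest, 881, was at chr1:11968230-11968294 (plus strand, 65 nt), on a UVA site of 64 nt at the limit. On the plus strand of chromosome 1 the sites from 28833874 to 28834042 (score 403) and from 28835070 to 28835231 (303) were 169 and 162 nt wide. The first met a UVA site of 74 nt over 27 nt of its length, and the second met 2 UVA sites, at scores of 97 and 1000. At chr6:52860647-52860709 (plus, 394), at chrX:73047176-73047287 (minus, 280) and at chr11:62609163-62609273 (minus, 277) the UVA partner was again at the limit. At chr2:203157774-203157824 (plus, 289) the partner scored 734. At chr6:126301034-126301082 (minus, 202) it was a UVA site of 11 nt with a score of 13. Of these 10 sites 9 met a UVC site, 7 a YFP site and 6 an iCLIP site. Over all 2341 no-UV sites the shares were 17.7%, 2.99% and 6.75% in that order, so the 10 were not typical of the list.

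The 2 of those 10 without a UVA site were at chr12:63244608-63244653 (minus, score 321), which met a UVC site, and at chr3:173624669-173624720 (plus, 198), which met no other list. Their nearest UVA sites on the strand were 30494 and 399833 nt away. The next no-UV sites without a UVA partner were at chr3:186534269-186534318 (minus, 165), chr1:24995740-24995789 (plus, 135) and chr8:77593621-77593670 (plus, 132). All 3 were 50 nt wide and met none of the other lists. Over the 2001 no-UV sites on no UVA site, the nearest UVA site on the strand was 10.5 kb away in the median. It was within 10 kb for 986 of them (49.3%) and beyond 100 kb for 393 (19.6%).

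In windows of 100 kb, counted per strand, 13422 windows held a site of either list. A window was called gained with UVA when it held at least 5 UVA sites and no no-UV site. This was met by 4193 windows (31.2%), which held 43865 UVA sites (62.6% of the list). The count follows the length of the UVA list: with as many top-scoring UVA sites as there were no-UV sites, 25 of 2955 windows met it. Sites of both lists were present in 1440 windows (10.7%), and 518 (3.86%) held no-UV sites alone. Gained windows had a median of 9 UVA sites, 5 UVC sites and 5 iCLIP sites, and 92.5% of them held a UVC site, 91.2% an iCLIP site and 7.11% a YFP site. In windows with both, for which no minimum was set, the medians were 6 UVA, 8 UVC and 5 iCLIP sites, and 14.7% held a YFP site. The minimum fixes the UVA sites of gained windows at 5 or more, so these medians are no comparison of the classes. The other 7271 windows (54.2%) held 1 to 4 UVA sites and no no-UV site. The windows with no-UV sites alone held a UVC site in 77.0% of cases and an iCLIP site in 34.6%. Over all 13422 windows the shares were 77.2% for UVC, 68.4% for iCLIP and 5.60% for YFP. Most windows with both lists, 1208 of 1440, had a single no-UV site.

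Windows dense in UVA sites more often held a no-UV site as well. The share was 6.28% of 3771 windows with 1 UVA site, 13.1% of 2781 with 5 to 9, 18.6% of 1757 with 10 to 19 and 34.7% of 101 with 30 or more (interval 25.5 to 44.8). For every 100 UVA sites there were 7.16 no-UV sites in windows with 1 UVA site and 1.75 in windows with 10 to 19. The UVA count both groups the windows and divides here, so this value would fall even with equally many no-UV sites in every window. The no-UV sites themselves numbered 270 in the 3771 windows with 1 UVA site and 410 in the 1757 with 10 to 19. In the densest windows the value was 2.49, or 1.65 without the single window on chromosome X described below. Of the 101 densest windows 66 held no no-UV site. Over all 13422 windows with a site of either list, 11464 (85.4%) held UVA sites and no no-UV site.

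**Figure D3:**
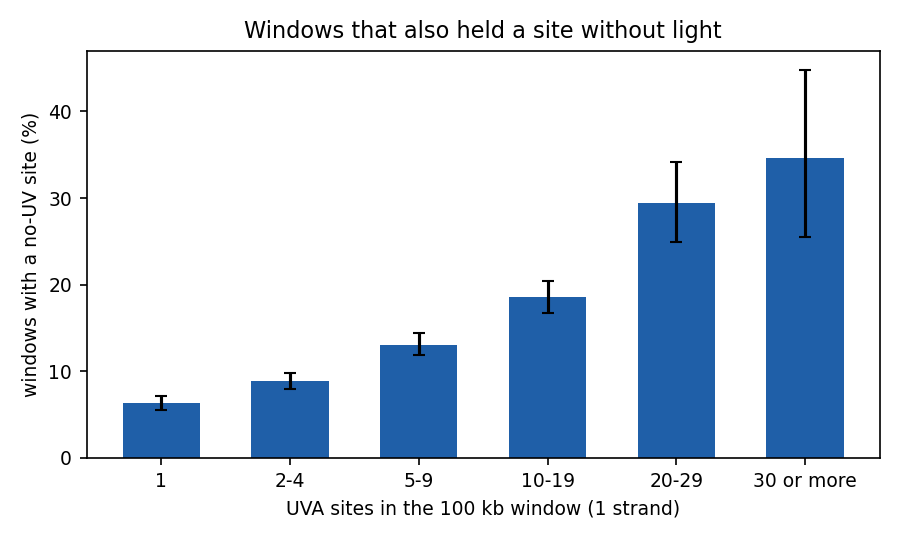
Share of 100 kb windows, counted per strand, that held at least 1 no-UV site (%), by the number of UVA sites in the window; bars start at 0 and whiskers are exact 95% intervals. The share rises from 6.28% with 1 UVA site to 34.7% with 30 or more.

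The gained window with the most UVA sites was on the minus strand of chr19:9000001-9100000, with 56 UVA sites of a median score of 39, against 8 UVC and 19 iCLIP sites. On chromosome 11, 3 gained windows followed: from 62300001 to 62400000 (minus, 55 UVA sites), from 65100001 to 65200000 (plus, 53) and from 62400001 to 62500000 (minus, 49). The plus-strand one held 24 UVC and 45 iCLIP sites. The window at chr17:26900001-27000000 (minus) held 48 UVA sites with a median score of 185, 34 UVC, 32 iCLIP and 2 YFP sites. Chromosome 3 from 48600001 to 48700000 (minus) held 46 UVA sites against 5 UVC and 20 iCLIP sites. There were 45 UVA sites each at chr12:133300001-133400000 (minus), chr19:44600001-44700000 (plus) and chrX:47000001-47100000 (plus), with 19, 28 and 42 UVC sites. Chromosome 3 from 184000001 to 184100000 (plus) held 44 UVA and 35 UVC sites. Among these 10 windows, UVA stood against UVC sites from 46 against 5 to 45 against 42, and 3 of them held YFP sites.

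The window with the most no-UV sites was on the minus strand of chrX:73000001-73100000, with 33 no-UV and 62 UVA sites. The next, at chr11:65200001-65300000 (plus), held 7 no-UV and 48 UVA sites, beside 44 UVC, 9 YFP and 40 iCLIP sites. It adjoins the gained window from 65100001, which had 53 UVA sites and none without light. Then came windows with 5 no-UV sites each at chr5:138600001-138700000 (plus, 43 UVA sites), chr17:7400001-7500000 (plus, 32), chr19:3900001-4000000 (minus, 23) and chr1:45200001-45300000 (plus, 20). In the windows on chromosomes 1 and 19, 4 of the 5 no-UV sites lay on a UVA site, whereas in the window on chromosome 5 none of the 5 did. The minus-strand window of chr5:106900001-107000000 was unlike these, with 5 no-UV sites, 1 UVA site, no UVC and no YFP site. With 4 no-UV sites, the windows at chr1:245000001-245100000 (minus) and from 205600001 to 205700000 (minus) held 45 and 14 UVA sites, and that at chr10:17200001-17300000 (plus) held 12. In all, 8 windows were tied at 4 no-UV sites.

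Of windows without UVA sites, 3 held as many as 3 no-UV sites. They were at chr7:133300001-133400000 (plus), chr13:34400001-34500000 (plus) and chrX:76800001-76900000 (minus). They held 2, 1 and 11 UVC sites. A further 47 had 2 no-UV sites, among them those at chr1:41600001-41700000 and from 51200001 to 51300000 (both minus).

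As a stand-in for transcripts, sites of both lists on one strand were chained into runs wherever the gap to the next was at most 10 kb, a rule set after the data had been seen. A run need not match a transcript: a long intron splits it, and close neighbours on one strand join. There were 21037 runs. With at least 5 UVA sites and no no-UV site, 4125 (19.6%) were called gained, and they held 52.9% of UVA sites over a median length of 10.97 kb. Sites of both lists were found in 1133 runs (5.39%), which held 7706 UVA and 1331 no-UV sites. The remaining 1010 no-UV sites (43.1%) formed 973 runs (4.63%) without any UVA site, 937 of them single sites. Of these 973 runs 4.52% held a UVC and 1.34% an iCLIP site, against 35.5% and 35.1% of all runs. Their median length was 0.05 kb, against 0.3 kb over all runs, and a short run has less room for another site. The share of runs with a no-UV site rose from 2.90% with 1 UVA site to 14.9% with 10 to 19. With 20 or more it was 28.9% (70 of 242, interval 23.3 to 35.1). Longer runs have more room for a no-UV site. A no-UV site can also join UVA sites into 1 run, so part of this rise is built into the chaining.

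The gained run with the most UVA sites lay on the minus strand of chr19:9028890-9079781, with 51 UVA sites along 50.9 kb, 8 UVC and 14 iCLIP sites. The next were at chr11:62360707-62445619 (minus, 48 UVA sites), chrX:47053722-47107708 (plus, 45), chr1:179809143-179844500 (minus, 41) and chr9:112736-177001 (minus, 37). Scores differed among them, with a median of 162 on chromosome X and 41 on chromosome 9, where 3 UVC sites were found. Runs at chr3:184018087-184063517 (plus) and chr17:46643759-46707085 (minus) held 35 UVA sites each. The second of these also held 29 UVC and 35 iCLIP sites. The densest of the 10 was at chr5:179041190-179049314 (minus), with 34 UVA sites in 8.125 kb, or 4.18 sites per kb. Chromosome 11 from 6616491 to 6653769 (minus) and chr17:26874548-26915444 (minus) had 33 each. A YFP site was present in 3 of these 10 runs.

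The run at chrX:73041834-73072423 (minus strand, 30.6 kb) stood apart from the other runs with no-UV sites. It held 33 no-UV sites, 1.41% of that list, and 62 UVA sites, 0.0884% of that list. It also held 46 UVC, 30 YFP and 6 iCLIP sites, and the YFP sites were 2.78% of their list. Of the 62 UVA sites, 16 (25.8%) lay on a no-UV site, 29 on a UVC site and 15 on a YFP site. Of the 33 no-UV sites, 20 (60.6%) lay on a UVA site. The UVA score was at the limit for 42 of the 62 sites, while the median no-UV score was 20 and the highest 280. Of the 201 UVA peaks in the run, 63 are listed with a p-value and a score of 0 and were taken as lying at the limit, which set the score of 1 merged site. Along the run, 37 of the UVA sites and 19 of the no-UV sites fell in the first 10 kb from the 5′ end, as did 36 of the 46 UVC sites but 12 of the 30 YFP sites and 1 of the 6 iCLIP sites. The last 10 kb held 8 UVA, 9 no-UV, 4 UVC, 12 YFP and 3 iCLIP sites. The widest UVA site, 738 nt, lay about 25 kb from the 5′ end, with 3 of the no-UV sites on it. Without this run 0.461% of UVA sites lay on a no-UV site and 13.9% of no-UV sites on a UVA site.

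**Figure D4:**
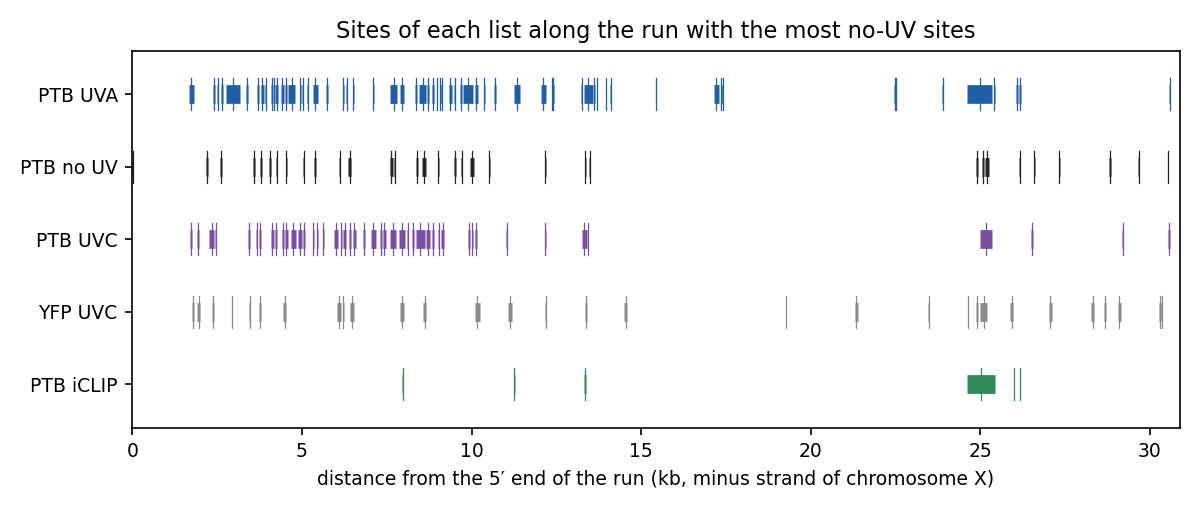
Sites of the 5 lists along the minus-strand run of chromosome X that held the most no-UV sites; the x axis is the distance from the 5′ end of the run in kb, and each mark is 1 site drawn to scale with a thin line at its centre. The first and the last 10 kb hold 37 and 8 of the 62 UVA sites, 19 and 9 of the 33 no-UV sites, 36 and 4 of the 46 UVC sites, and 12 and 12 of the 30 YFP sites.

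No other run held more than 5 no-UV sites. With 5 each, there were runs at chr5:138611868-138666999 (plus, 41 UVA sites), chr19:3961300-3985451 (minus, 23) and chr1:45224173-45244383 (plus, 13). In the run on chromosome 19 the UVA partners of 4 no-UV sites scored 1000, 260, 839 and 633, and the no-UV sites scored 44, 14, 18 and 32. In the run on chromosome 1 the UVA partners scored 346, 120, 927 and 653 against 19, 23, 16 and 25. With 4 no-UV sites each, runs lay at chr1:245005044-245025305 (minus, 45 UVA sites) and from 205682973 to 205690291 (minus, 12), and at chr17:7468093-7495654 (plus, 28). Others were at chr11:65266711-65273475 (plus, 31 UVA sites), chr10:17271275-17279580 (plus, 12) and chr12:1309738-1329147 (plus, 11). The run on chromosome 11 was short and crowded, with 4.58 UVA sites per kb, 7 YFP sites and 8 UVA sites at the score limit. The run on chromosome 1 that starts at 245005044 had 45 UVA sites and 4 no-UV sites without a single overlap between them. Among runs without UVA sites the one at chr13:34410592-34417827 (plus) held the most no-UV sites, 3, with scores up to 23. Runs of 2 included those at chr7:23489710-23499489 (minus) and chr4:85765174-85774822 (minus).

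UVA and no-UV sites also differed in their spread over chromosomes. Chromosome 19 held 8.70% of UVA sites (interval 8.49 to 8.91) and 4.87% of no-UV sites (interval 4.03 to 5.82), a ratio of 1.79 with a normal 95% interval of 1.49 to 2.14. The ratio was 2.22 on chromosome 16 (interval 1.70 to 2.88), 1.76 on chromosome 11 (interval 1.40 to 2.20), 1.52 on chromosome 22 and 1.26 on chromosome 17. It was lowest on chromosomes 13 (0.556, interval 0.425 to 0.728), 10 (0.599, interval 0.503 to 0.713) and 18 (0.633, interval 0.483 to 0.829). Over 23 chromosomes the interval lay above 1 for 5, below 1 for 9 and held 1 for 9. On chromosome X the ratio was 0.744 over all sites. Outside the run described above, chromosome X held 3.12% of UVA and 2.95% of no-UV sites.

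**Figure D5:**
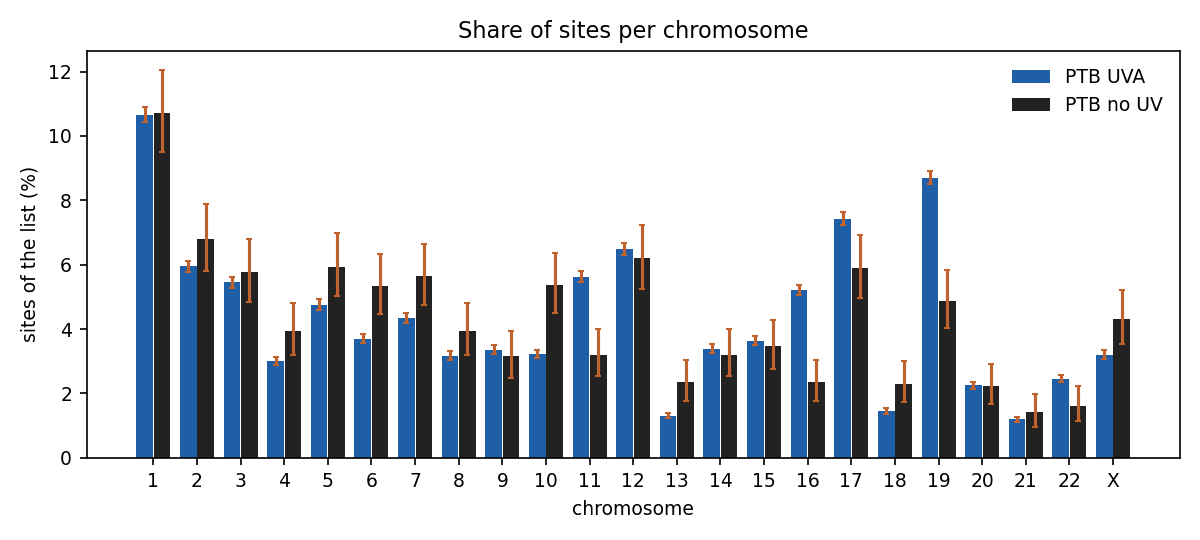
Share of the sites of each list (%) on chromosomes 1 to 22 and X for PTB UVA (blue) and PTB without UV (black); bars start at 0 and whiskers are exact 95% intervals for counting error. UVA shares stand above no-UV shares on chromosome 19 (8.70% and 4.87%) and below them on chromosome 13 (1.31% and 2.35%).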

How the data were processed

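The 4 samples of PTB with UVA and PTB without UV, 2 per group by their titles, are represented by 1 deposited peak list per group. Reads were mapped with Bowtie 1.1.2, and hg19 and dm3 are named as builds, per the submitters' processing notes. Positions were read as hg19, since the chromosomes named in the lists are human. Not given in the sources used here are the peak caller, its filters and the way replicates were combined. The deposited peak score (whole numbers up to 1000) and the deposited p-value (printed to 14 decimals) are the authors' values. They were used to describe and rank peaks within a list. Scores of the 2 lists were also set side by side for overlapping sites and in runs, as a description only. A gap between scores of different lists is not read as a difference in binding, since depth is unknown. Peaks listed with a p-value and a score of 0 (538 in the UVA list) were taken as at the limit of 1000. Repeated intervals numbered 555 (UVA) and 157 (no UV). Depth per sample is unknown.

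Peaks within 20 nt on one strand were merged into sites, which kept the highest score. Overlap meant at least 1 nt on one strand. It was checked against bedtools 2.31.1, with equal counts in 4 of 4 ordered pairs, and tested on simulated data. Windows of 100 kb took sites by their midpoint. Sites named were the top 10 by score among gained, shared and no-UV sites and the top 5 no-UV sites without a UVA site, with ties ranked by width, then position. Windows named were the 10 with the most UVA sites and no no-UV site, the 10 with the most no-UV sites and the 5 with the most no-UV sites and no UVA site. Runs were named in the same way, with 3 named among those without a UVA site. These rules and the members were chosen with earlier results of these data known. Gene lists and sequence motifs that had been planned were not run, since no genome or annotation of hg19 was used here. Alternatives covered merging, overlap, strand, score, chromosomes, YFP sites, window size and run gaps. Computation was in Python 3.11.15 (scipy 1.17.1, pandas 2.3.3, numpy 2.4.6), and plots were drawn in matplotlib 3.10.9.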

Additional observations from a re-analysis of the deposited data

How the results depend on the processing

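No paired analysis was possible because each group has a single deposited list without replicate columns, and for the same reason no replicate could be left out. The share of UVA sites on a no-UV site, 0.484% as reported, was 0.598% for peaks as deposited with repeats counted once, 0.195% when at least 50% of the site had to be covered, 0.752% within 50 nt, 2.59% within 1000 nt, 0.565% at or above each list's median score, 4.06% among as many top UVA sites as there were no-UV sites, 0.424% with sites on a YFP site left out and 0.244% without no-UV sites of 49 to 51 nt. The share of no-UV sites on a UVA site, 14.5%, became 12.2%, 9.70%, 19.8% and 33.9% under the first 4 of these, 4.23% against as many top UVA sites, 12.99% without YFP sites and 25.8% without the 49 to 51 nt sites. UVA sites per no-UV site, 29.9 as reported, were 22.8 for deposited peaks, 27.7 with peaks within 50 nt merged, 23.6 at or above the median score and 105.3 without the 49 to 51 nt sites. Windows called gained fell from 4193 to 1775 when at least 10 UVA sites were asked for and to 25 with as many top UVA sites as no-UV sites, where fewer UVA sites enter by construction. Chromosome ratios kept their side of 1 for the 6 chromosomes tried (10, 11, 13, 16, 18 and 19). At or above the median score all 6 came closer to 1. The change went beyond the interval of the main value on chromosomes 16 (1.62), 11 (1.39) and 10 (0.849). It stayed within it on chromosomes 13 (0.685), 18 (0.642) and 19 (1.69). Of 61 alternative values in all, 37 stayed within the interval of the main value, or within 1.5 times a count, 24 moved and 0 reversed. Shares and counts have no direction, so a reversal could be seen only for ratios. The chromosomes tried were those with the highest and the lowest ratios. Leaving out the run on chromosome X, the 49 to 51 nt sites, and other run gaps were alternatives added after the data had been seen. Alternatives on genes, exons and motifs were not run, for want of an hg19 genome and annotation in use here. Depth, unknown for both lists, limits every share given here.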

Other observations

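The list without UV was also set beside the UVC list of the same tagged protein. Of the 2341 no-UV sites, 415 (17.7%, exact 95% interval 16.2 to 19.3) lay on a UVC site and 340 (14.5%, interval 13.1 to 16.02) on a UVA site. Both were met by 212, UVA without UVC by 128, UVC without UVA by 203 and neither by 1798. Within 10 kb on the same strand, 80.8% of no-UV sites had a UVC site (interval 79.2 to 82.4) and 56.6% a UVA site (interval 54.6 to 58.7). On the opposite strand the shares were 9.10% and 10.9%. The UVC list is the longer one, with 80531 sites against 70110, and the 2 comparisons share the list without UV.

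Chromosome shares of the 3 PTB lists, given side by side, were 8.70% (UVA), 4.87% (no UV) and 4.20% (UVC) on chromosome 19, 5.21%, 2.35% and 2.90% on chromosome 16, and 5.63%, 3.20% and 4.45% on chromosome 11. On chromosome 13 they were 1.31%, 2.35% and 2.19%, and on chromosome 10 they were 3.22%, 5.38% and 4.69%. Of the 415 no-UV sites on a UVC site, 28 had the same 5′ end as a UVC site and 5 matched one at both ends, against 7 and 0 for UVA. Sites of 49 to 51 nt made up 71.6% of the no-UV list and 40.01% of the UVC list, and the part of this width in shared ends was not tested.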
